A study of Mus musculus with 8 samples.

Results

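The coat of caveolae, the small flask-shaped pits of the plasma membrane, was followed through 7 genes in mouse lung: the caveolins *Cav1* and *Cav2*, the cavins *Cavin1*, *Cavin2* and *Cavin3*, and the membrane-shaping proteins *Ehd2* and *Pacsin2*. These genes were listed by their role in the coat, and the list was selected on results from these same samples, namely the CPM, counts scaled to a library of 1e6 in the 3 groups. The values of these 7 genes are therefore a description, and the counts of them that were called are given only beside those of all genes. Their symbols were matched to 7 of the 55416 gene identifiers, and all 7 passed the filter on low counts.

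Lung RNA was sequenced from 8 female C57BL/6J mice, 6 to 8 weeks old. The 3 control mice (numbers 1, 2 and 4) received DMSO by vein and then saline in the peritoneum. The 3 LPS mice (numbers 1, 6 and 7) received lipopolysaccharide, the endotoxin of Gram-negative bacteria, at 35 mg/kg in the peritoneum, and the methods name no DMSO injection for them. The 2 dual-treated mice (numbers 2 and 5) received YW3-56, an inhibitor of protein arginine deiminases, at 10 mg/kg in DMSO 0.5 h before the same dose of LPS. Lungs were taken about 24 h after LPS or saline. In the study's survival experiment, the median survival was shorter than 24 h with this LPS dose and longer with YW3-56 before it. LPS lungs thus came from mice that lived to sampling, and the part of this in the values was not tested. Total counts per library ran from 19061949 to 20908608. The effect of YW3-56 without LPS was not analysed here. Control and dual-treated mice both received DMSO. Against LPS mice, the vehicle therefore cannot be told apart from the inhibitor in the dual treatment. In the comparison of LPS with control, its absence cannot be told apart from LPS.

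Caveolae are abundant in lung, above all in capillary endothelium and in the flat alveolar type 1 cells, and also in smooth muscle, fibroblasts and adipocytes. Caveolin-1 oligomers insert into the inner face of the membrane with cholesterol, cavin complexes assemble on them from the cytosol, and EHD2 forms an ATPase ring at the neck. Loss of either caveolin-1 or cavin-1 is known to remove caveolae from the lung.

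The LPS values of all 7 coat genes lay below every control value, and their dual-treated values lay above every LPS value. Of all tested genes, 37.3% lay wholly below control and 34.7% wholly above with LPS, and 37.9% lay wholly above LPS and 32.9% wholly below with the dual treatment. In the fit across 18560 genes (edgeR's quasi-likelihood test, called at a Benjamini-Hochberg adjusted p under 0.05), 7 of 7 were called lower with LPS against control, where 33.9% of all tested genes were called lower and 32.6% higher. Against LPS, 7 of 7 were called higher with the dual treatment, where 31.7% of all tested genes were called higher and 27.4% lower. Nothing is read from these counts, since the same comparisons chose the genes. The comparisons share samples with each other. The median log2 fold change (log2FC) over the 7 genes was -2.27 for LPS against control and 1.84 for dual treatment against LPS, beside -0.01 and 0.06 over all tested genes.

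Against control, the dual-treated mice did not show 1 common picture. Of the 7 genes, 5 were lower in both dual-treated mice than in any control mouse, *Cavin3* was higher in both, and *Pacsin2* overlapped with control. Of all tested genes, 26.2% lay wholly below control and 26.1% wholly above, and nothing is read from this count. There 1 of 7 was called lower and 1 higher, beside 7.02% and 9.13% of all tested genes, and nothing is read from these counts either. The median log2FC over the 7 genes was -0.42, beside 0.00 over all tested genes. It was -0.24 without dual-treated mouse 2 and -0.71 without dual-treated mouse 5.

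**Figure D1:**
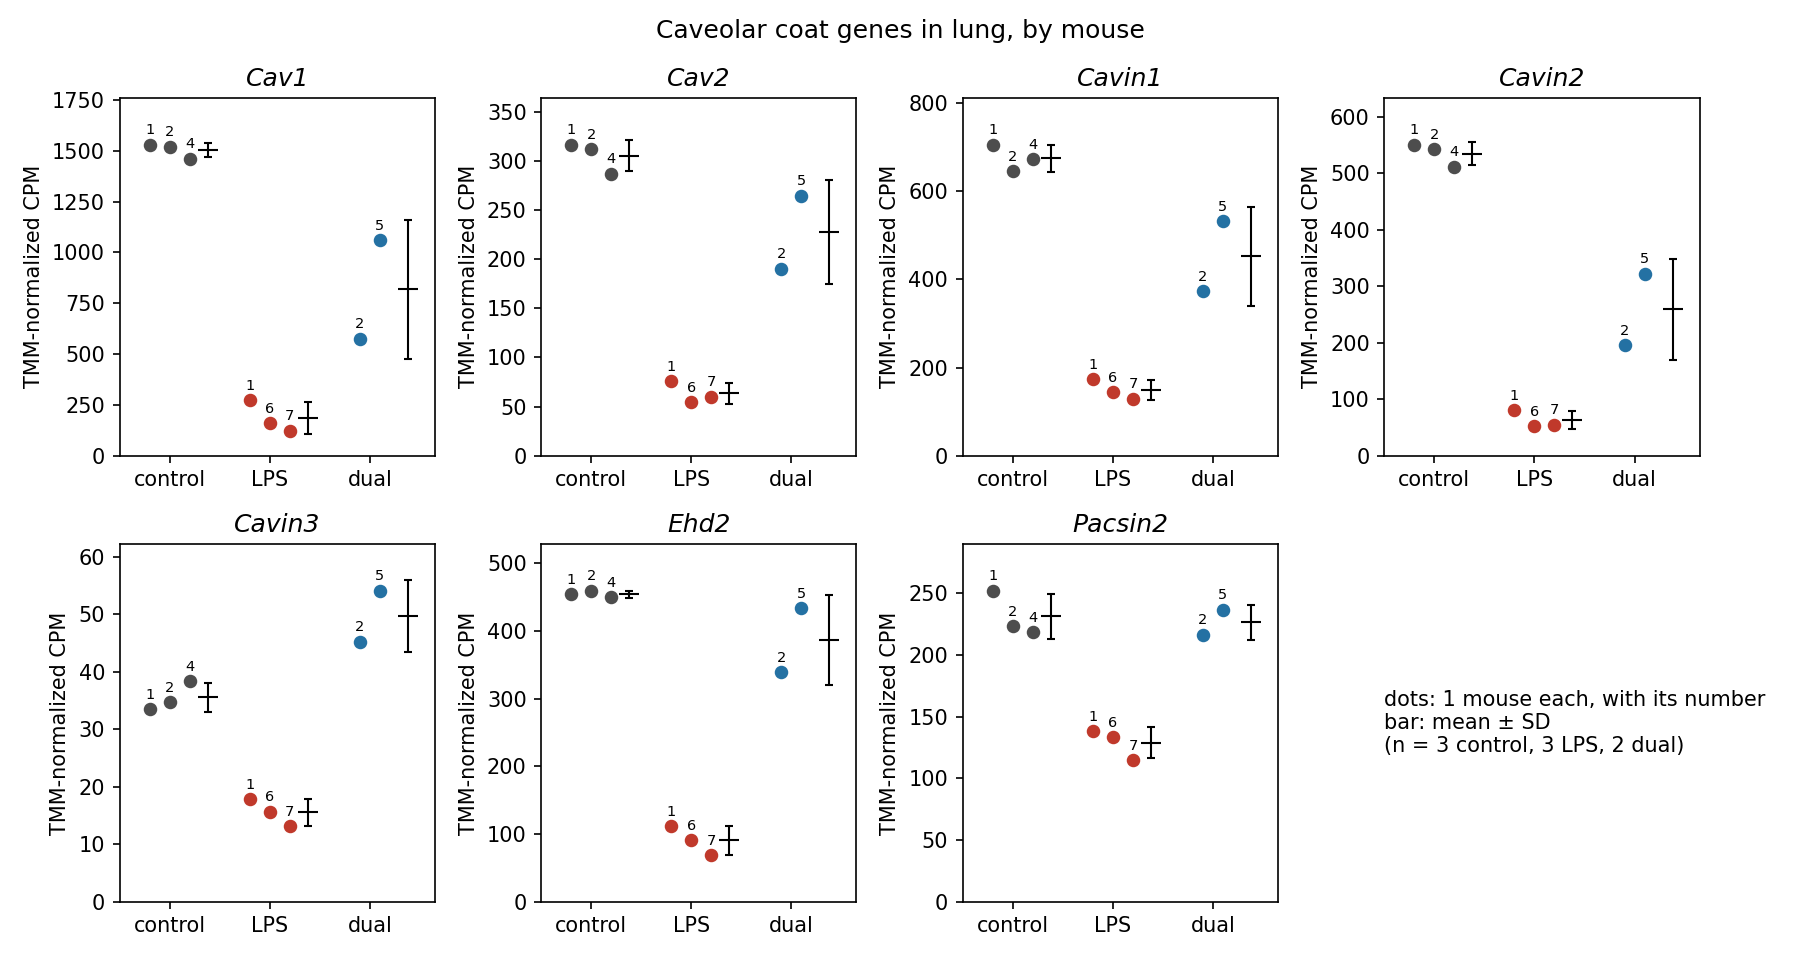
TMM-normalized CPM (vertical axes, linear, from 0) of the 7 coat genes in each mouse of the 3 groups (horizontal axes), with 1 dot per mouse labelled by its number and the mean ± SD beside it. The LPS dots lie below all others in each panel, and dual-treated mouse 2 lies below dual-treated mouse 5 in all 7.

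*Cav1* encodes caveolin-1, the structural protein without which caveolae of non-muscle cells do not form. Its level, in TMM-normalized CPM, was 1530, 1519 and 1462 in control mice 1, 2 and 4, then 274, 159 and 122 in LPS mice 1, 6 and 7, and 576 and 1060 in dual-treated mice 2 and 5. Control lungs thus lay close together (1504 ± 36.7, SD, n = 3), whereas the coefficient of variation was 42.8% in the LPS group and 41.9% in the dual group, against 2.44% in control. The LPS mean was 8.13-fold below the control mean in the fit, a log2FC of -3.02 (SE 0.32). Dual-treated lungs were at 2.14 (SE 0.33) on the log2 scale against LPS and at -0.88 (SE 0.34) against control. LPS mouse 1 was the highest of its group, and none of the 3 groups overlapped. The value against control rested on both dual-treated mice unequally: it was -1.41 without mouse 5 and -0.54 without mouse 2.

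*Cav2*, which encodes the caveolin that joins caveolin-1 in hetero-oligomers and depends on it for its stability, was at 317, 312 and 287 CPM in control mice 1, 2 and 4. It was at 75.6, 54.6 and 60.0 CPM in LPS mice 1, 6 and 7, and at 190 and 265 CPM in dual-treated mice 2 and 5. The groups kept apart here too, with the dual-treated mice nearer to control than to LPS. The log2FC was -2.27 (SE 0.16) for LPS against control, -0.42 (SE 0.17) for dual treatment against control and 1.84 (SE 0.17) for dual treatment against LPS. Without dual-treated mouse 5 the value against control was -0.71, and without mouse 2 it was -0.24.

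Both caveolin genes lie side by side on chromosome 6 of GRCm39, on the forward strand, *Cav2* from 17281026 to 17289877 and *Cav1* from 17306140 to 17341451. The 16262 bases between them hold 0 annotated genes. The other coat genes lie elsewhere: *Cavin1* on chromosome 11 (100847559 to 100861713, reverse strand), *Cavin2* on chromosome 1 (51328266 to 51345710, forward), *Cavin3* on chromosome 7 (105128391 to 105131507, reverse), *Ehd2* also on chromosome 7 (15680874 to 15701629, reverse) and *Pacsin2* on chromosome 15 (83258424 to 83348819, reverse). No coat gene shares exon sequence with another protein-coding gene. Several share exon bases with antisense transcripts, and since the strand setting of the counting is not given in the sources used here, reads of such pairs cannot be told apart. Where the antisense gene was counted, few reads were assigned to it. *Gm15581*, opposite *Cav2*, had 20 counts over the 8 libraries against 32874 for *Cav2*. *9330175M20Rik*, opposite *Cavin2*, had 8, and *Gm45667*, opposite *Cavin3*, had 2. These counts do not show how many reads fell on the shared bases. The longest overlap of a coat gene, 898 bases, was that of *Cavin1* with *Gm57383*, which is absent from the counts.

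*Cavin1* encodes cavin-1 (PTRF), the core cavin required for the coat. Its CPM was 706, 645 and 672 in control mice 1, 2 and 4, 174, 144 and 129 in LPS mice 1, 6 and 7, and 373 and 532 in dual-treated mice 2 and 5. The LPS values lay far below the others, and both dual-treated mice lay between the groups without touching either. The log2FC was -2.18 (SE 0.16) for LPS against control, -0.58 (SE 0.18) for dual treatment against control and 1.60 (SE 0.17) for dual treatment against LPS. The value against control was -0.88 without dual-treated mouse 5 and -0.37 without mouse 2.

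*Cavin2* encodes cavin-2 (SDPR), a phosphatidylserine-binding cavin that takes part in shaping caveolae, particularly in lung endothelium. It was at 550, 542 and 511 CPM in control mice 1, 2 and 4, at 80.6, 51.6 and 55.0 CPM in LPS mice 1, 6 and 7, and at 196 and 322 CPM in dual-treated mice 2 and 5. Of the 7 coat genes it had the lowest log2FC with LPS against control, -3.10 (SE 0.22), which differed from that of *Cav1* by less than either SE. It was also furthest below control with the dual treatment, at -1.05 (SE 0.24), and 2.05 (SE 0.23) above LPS. Its value against control was -1.48 without dual-treated mouse 5 and -0.76 without mouse 2.

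*Cavin3* encodes cavin-3 (PRKCDBP or SRBC), a cavin that binds cavin-1 and protein kinase C delta. It had the fewest reads of the 7 genes, from 235 to 1231 counts per library. Its CPM was 33.5, 34.7 and 38.4 in control mice 1, 2 and 4, 17.9, 15.7 and 13.1 in LPS mice 1, 6 and 7, and 45.2 and 54.0 in dual-treated mice 2 and 5. It was the only coat gene whose dual-treated values lay above each control value. The log2FC was -1.19 (SE 0.14) for LPS against control, 0.48 (SE 0.14) for dual treatment against control and 1.67 (SE 0.15) for dual treatment against LPS. The value against control ran from 0.32 without dual-treated mouse 5 to 0.57 without mouse 2.

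*Ehd2* encodes the ATPase that sits at the caveolar neck and holds caveolae at the surface. Its CPM was 454, 459 and 449 in control mice 1, 2 and 4, the tightest control group of the 7 genes, with a coefficient of variation of 1.07%. It was 112, 91.4 and 69.0 in LPS mice 1, 6 and 7, and 339 and 433 in dual-treated mice 2 and 5. Dual-treated mouse 5 was thus at 95.4% of the control mean and mouse 2 at 74.7%. The log2FC was -2.32 (SE 0.18) for LPS against control, -0.23 (SE 0.19) for dual treatment against control and 2.09 (SE 0.19) for dual treatment against LPS. Against control it was -0.45 without dual-treated mouse 5 and -0.10 without mouse 2.

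*Pacsin2* encodes an F-BAR protein that bends membranes in forming caveolae and in endocytosis more widely. Its CPM was 252, 223 and 218 in control mice 1, 2 and 4, 138, 133 and 115 in LPS mice 1, 6 and 7, and 216 and 236 in dual-treated mice 2 and 5. Of the 7 genes it differed least between LPS and control, with a log2FC of -0.84 (SE 0.11), and least between dual treatment and LPS, at 0.81 (SE 0.12). Against control the dual-treated value was -0.03 (SE 0.12), with overlapping mice, and its sign turned without control mouse 1 (0.04), with scaling by total counts instead of TMM (0.01) and without dual-treated mouse 2 (0.00).

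**Figure D2:**
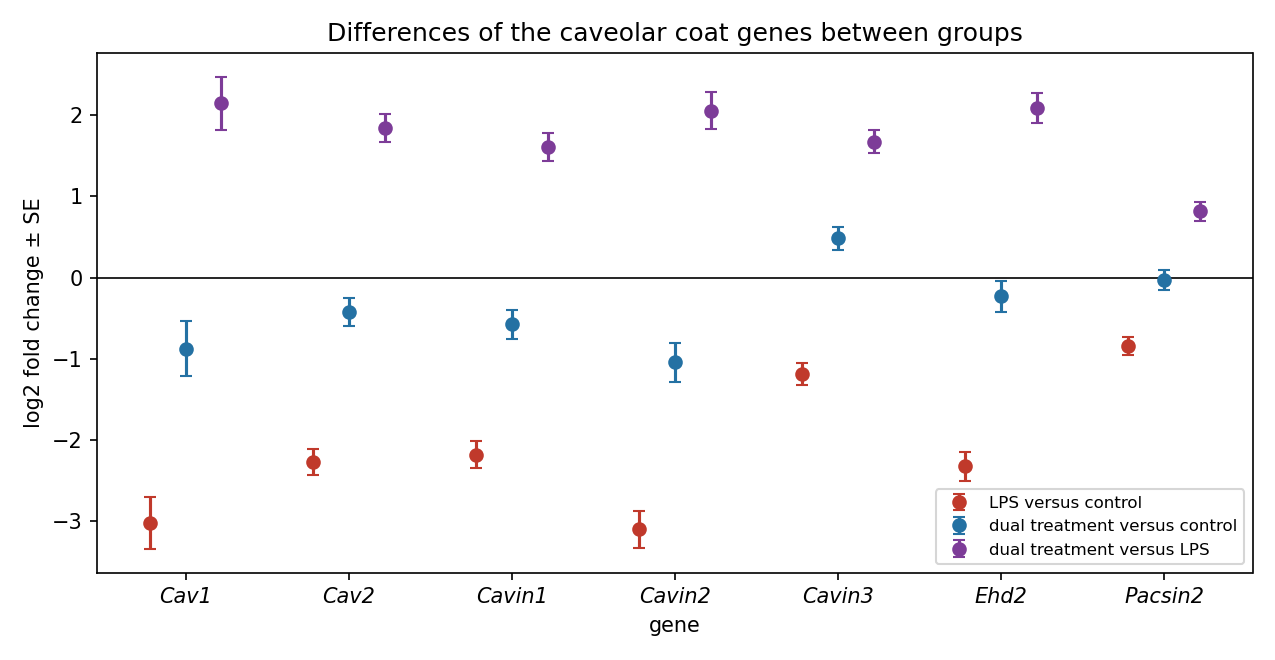
Log2 fold change with its SE (vertical axis) of each coat gene (horizontal axis) in the 3 comparisons, given by colour. The LPS values against control run from -3.10 for *Cavin2* to -0.84 for *Pacsin2*, and the dual-treatment values against control lie on both sides of 0.

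Expressed relative to the control mean, the LPS group kept 12.3% of *Cav1*, 11.7% of *Cavin2*, 20.8% of *Cav2*, 22.1% of *Cavin1*, 20.0% of *Ehd2*, 43.8% of *Cavin3* and 55.7% of *Pacsin2*. The dual group was at 54.4%, 48.4%, 74.5%, 67.1%, 85.1%, 140% and 97.9% of the control mean for the same genes. So *Cav1* and *Cavin2* were lowest in both treated groups, and *Pacsin2* and *Cavin3* highest. The order of mice within a group was largely shared by the genes. LPS mouse 1 was the highest LPS mouse for 7 of 7 genes, and LPS mouse 7 was the lowest for 5 and mouse 6 for the other 2. Dual-treated mouse 2 was below mouse 5 for 7 of 7. The order of the LPS mice is that of TMM-normalized CPM. Relative to total counts, *Pacsin2* was higher in LPS mouse 6 (2310 of 19379911) than in LPS mouse 1 (2330 of 20818501). The share of all genes with these orders is not given here.

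Levels of different genes were compared per length, as CPM per kb of the canonical transcript. In control lungs *Cav1* stood first at 529 ± 12.9 (SD, n = 3) and *Cavin1* second at 193 ± 8.71. *Cav2* at 87.3 ± 4.52 and *Ehd2* at 86.2 ± 0.921 overlapped, *Cavin2* at 80.2 ± 3.06 overlapped with *Cav2* but not with *Ehd2*, and below them came *Pacsin2* at 62.4 ± 4.87 and *Cavin3* at 13.9 ± 0.991. In LPS lungs *Cav1* (65.1 ± 27.9) overlapped with *Cavin1* (42.6 ± 6.52), and *Cavin1* with *Pacsin2* (34.8 ± 3.36). *Cav2* (18.1 ± 3.12) and *Ehd2* (17.2 ± 4.08) overlapped again, and *Cavin2* (9.36 ± 2.37) and *Cavin3* (6.08 ± 0.927) came last. In dual-treated lungs *Cav1* was again first (288 ± 120, n = 2) and *Cavin1* second (130 ± 32.3). *Ehd2* (73.3 ± 12.6), *Cav2* (65.1 ± 15.1) and *Pacsin2* (61.1 ± 3.85) overlapped in turn, above *Cavin2* (38.8 ± 13.4) and *Cavin3* (19.4 ± 2.43). With the length of all annotated exons in place of the canonical transcript, a choice made after seeing the data, *Cav1* and *Cavin1* kept the first places in each group. *Pacsin2* then moved from place 3 to 5 in LPS lungs, and *Cavin2* from place 5 to 3 in control lungs.

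Ratios within a mouse do not depend on the normalization between libraries. Per 100 of *Cav1*, on the per-length scale, *Cavin2* stood at 15.3, 15.2 and 14.9 in control mice 1, 2 and 4, at 12.5, 13.9 and 19.2 in LPS mice 1, 6 and 7, and at 14.5 and 12.96 in dual-treated mice 2 and 5. This ratio overlapped between control and LPS mice, while *Cav1* was 8.13-fold and *Cavin2* 8.57-fold lower with LPS. *Cavin1* stood at 37.6, 34.6 and 37.5 per 100 of *Cav1* in the control mice, at 51.6, 73.9 and 85.9 in the LPS mice and at 52.7 and 40.9 in the dual-treated mice. *Pacsin2* stood at 12.6, 11.3 and 11.5 in the control mice, at 38.7, 64.4 and 72.1 in the LPS mice and at 28.8 and 17.1 in the dual-treated mice. For both genes the LPS mice were above the control mice, so that *Cav1* made up a smaller share of the coat transcripts. *Cav1* held 49.8%, 50.9% and 50.2% of the summed per-length level of the 7 genes in the control mice, 39.3%, 31.0% and 27.8% in the LPS mice and 38.0% and 45.7% in the dual-treated mice. Relative to *Cav1*, *Cav2* ran from 16.0 to 16.8 in control and from 22.5 to 40.0 in LPS lungs, and *Ehd2* from 16.0 to 16.6 and from 22.1 to 31.1.

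**Figure D3:**
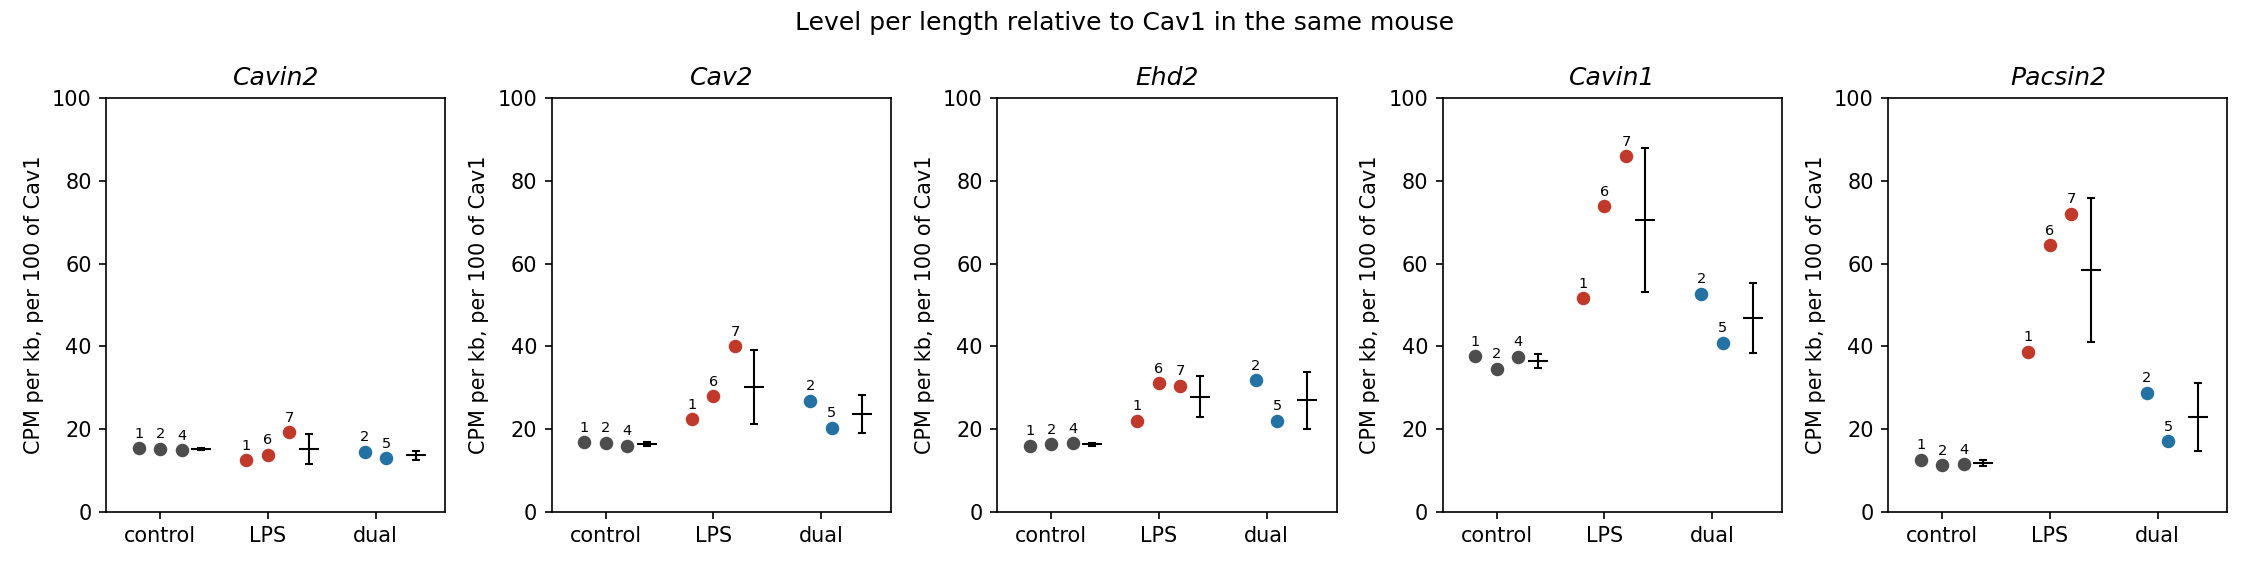
Level per length of 5 coat genes relative to *Cav1* in the same mouse (vertical axes, CPM per kb per 100 of *Cav1*), by group (horizontal axes), with 1 numbered dot per mouse and the mean ± SD beside it. *Cavin2* keeps between 12.5 and 19.2 in all mice, whereas *Pacsin2* lies between 38.7 and 72.1 in the LPS mice and at most at 12.6 in control.

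Genes with the pattern most like each coat gene were found as those with the smallest root mean square (RMS) difference in log2 CPM, centred on each gene's mean, over the 8 libraries and among 12162 other tested genes with a mean of at least 5 CPM. For *Cav1* they were *Ndnf* (RMS difference 0.14), *Akap5* (0.14) and *Cavin2* (0.18). The coat thus holds 1 of the 3 genes nearest to *Cav1*, and *Cav1* was at rank 8 for *Cavin2*. Around *Cav2*, the nearest were *Btbd2*, *Cdkn1c* and *Abcb1a*, with *Cavin1* at rank 7 and *Ehd2* at rank 28, while its neighbour on the chromosome, *Cav1*, was at rank 891, and *Cav2* at rank 111 for *Cav1*. *Cavin1* was nearest to *Atp2a3*, *Mrm2* and *Thap2*, with *Cav2* at rank 10. *Ehd2* was nearest to *Pea15a*, *Pdia5* and *Ccdc61*, with *Cav2* at rank 13 and *Cavin1* at rank 54. *Cavin3* (nearest *Mrps25*, *Sh3kbp1* and *Mpp1*) and *Pacsin2* (nearest *Cers2*, *Chd9* and *Ccdc107*) stood apart, with no other coat gene nearer than rank 849 and rank 3054. In RMS difference *Cav1* lay nearest to *Cavin2* among the coat genes, and *Cav2*, *Cavin1* and *Ehd2* lay near each other. By rank this was less clear: *Ehd2* was at rank 98 for *Cavin1* (RMS difference 0.22) and at rank 88 for *Cav1* (0.40).

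Upstream sequence is shown for *Cav1* and *Cavin2*, which had the lowest log2FC with LPS against control, and for *Pacsin2*, which differed least between groups. Each run is the 250 bases of GRCm39 before the start of the canonical transcript in GENCODE M39, on the strand of the gene, and holds no annotated exon. They lie at chr6:17305890-17306139 (forward), chr1:51328016-51328265 (forward) and chr15:83348820-83349069 (reverse). Capitals mark matches, on either strand, to the GC box GGGCGG, the CACCC box CCACCC, the CCAAT box CCAAT, the TATA box TATAAA, the ETS motif CCGGAA, the AP-1 motif TGANTCA and the E-box CACGTG.
Cav1: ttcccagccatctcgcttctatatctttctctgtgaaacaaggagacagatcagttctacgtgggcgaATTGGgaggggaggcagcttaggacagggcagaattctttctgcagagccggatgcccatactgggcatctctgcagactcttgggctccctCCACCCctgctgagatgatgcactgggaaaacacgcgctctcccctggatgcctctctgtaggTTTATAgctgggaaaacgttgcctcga
Cavin2: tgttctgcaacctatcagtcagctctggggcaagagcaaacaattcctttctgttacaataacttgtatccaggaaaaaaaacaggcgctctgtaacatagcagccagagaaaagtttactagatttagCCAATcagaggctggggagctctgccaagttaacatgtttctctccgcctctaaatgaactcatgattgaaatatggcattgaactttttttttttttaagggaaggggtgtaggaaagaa
Pacsin2: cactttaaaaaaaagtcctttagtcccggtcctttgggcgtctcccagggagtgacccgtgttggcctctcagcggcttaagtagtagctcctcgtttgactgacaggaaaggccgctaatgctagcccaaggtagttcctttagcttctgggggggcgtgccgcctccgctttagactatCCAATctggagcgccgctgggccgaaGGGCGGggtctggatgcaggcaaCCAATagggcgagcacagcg
*Cav1* and *Cavin2* each had 1 CCAAT box and *Pacsin2* had 2, and 36.5% of the 21770 promoters of protein-coding genes taken the same way had at least 1. *Cav1* also had 1 TATA box, found in 11.9% of promoters, and 1 CACCC box, found in 28.6%. *Pacsin2* had 1 GC box, found in 36.3%. The other motifs were found in 12.4% (ETS), 6.17% (AP-1) and 6.26% (E-box) of promoters and in none of these 3. The share of G and C was 54.0% for *Cav1*, 40.4% for *Cavin2* and 58.0% for *Pacsin2*, beside a median of 53.2% over all promoters. Letters of this kind recur by chance and describe the sequence, not a site in use.

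Among 7 paralogs of the coat genes, 3 were called higher and 1 lower with LPS against control, beside 32.6% and 33.9% of all tested genes. With library size only, 2 were called higher and 3 lower. With the dual treatment against control 0 were called, beside 9.13% of all tested genes higher and 7.02% lower. Against LPS 1 was called higher and 4 lower, beside 31.7% and 27.4%. *Ehd4*, an EHD ATPase close to *Ehd2*, fell with LPS, from 577, 543 and 545 CPM in control mice 1, 2 and 4 to 255, 184 and 165 CPM in LPS mice 1, 6 and 7 (log2FC -1.46, SE 0.17, adjusted p = 5.02e-05 by Benjamini-Hochberg in edgeR's quasi-likelihood test). It was at 452 and 357 CPM in dual-treated mice 2 and 5. *Ehd1*, the EHD ATPase of endocytic recycling, rose with LPS, from 242, 288 and 300 CPM to 1018, 826 and 685 CPM (log2FC 1.61, SE 0.16, adjusted p = 2.34e-05 from the same edgeR test), and was at 445 and 373 CPM in the dual-treated mice. So the EHD genes went in opposite directions with LPS, *Ehd2* values lying on the side of *Ehd4*. *Ehd3* was at 15.9 to 18.2 CPM in control and 12.9 to 16.7 CPM in LPS lungs, and did not pass the test.

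Muscle caveolae use *Cav3* and *Cavin4*, and both were scarce in these lungs. *Cav3* had 2.06, 1.74 and 2.30 CPM in control mice 1, 2 and 4, 2.37, 4.56 and 8.99 CPM in LPS mice 1, 6 and 7, and 0.771 and 1.23 CPM in dual-treated mice 2 and 5. It rose with LPS in the fit (log2FC 1.39, SE 0.44, adjusted p = 0.0191 by Benjamini-Hochberg in edgeR's quasi-likelihood test), but only LPS mice 6 and 7 stood well above control. The call was lost without control mouse 1, control mouse 2 or LPS mouse 7 and with scaling by total counts (adjusted p = 0.051, 0.0625, 0.094 and 0.0543, edgeR), and with LPS mouse 1 as the only LPS mouse the log2FC was 0.22 (adjusted p = 0.667, edgeR). Markers of skeletal muscle were high in LPS mice 6 and 7 as well: 8 genes summed to 9.20, 18.5 and 12.9 CPM in control mice 1, 2 and 4, to 16.0, 241 and 587 CPM in LPS mice 1, 6 and 7, and to 4.81 and 7.07 CPM in dual-treated mice 2 and 5. *Ckm* was the most abundant, and *Myh1*, *Myh2*, *Myh4* and *Tnnc2* were at 0 in some libraries. The part of muscle in the *Cav3* values was not tested. *Cavin4* ranged from 0.475 to 2.79 CPM over the LPS mice and did not pass the test in any comparison. *Pacsin1*, the neuronal F-BAR relative of *Pacsin2*, rose from at most 1.13 CPM in control to 4.92, 4.10 and 4.19 CPM in LPS lungs (log2FC 2.72, SE 0.45, adjusted p = 0.000537, edgeR), and *Pacsin3* at 38.4, 42.1 and 38.6 CPM in control and 34.5, 38.98 and 41.4 CPM in LPS lungs did not pass.

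Of 16 proteins that reside in or work with caveolae, 3 were called higher and 5 lower with LPS against control, and 8 were not called. Of all tested genes, 32.6% were called higher and 33.9% lower in that comparison. With library size only, 2 partners were called higher and 8 lower. *Plvap*, the diaphragm protein of endothelial caveolae and fenestrae, fell from 382, 455 and 478 CPM in control mice 1, 2 and 4 to 130, 100 and 93.9 CPM in LPS mice 1, 6 and 7 (log2FC -2.02, SE 0.16, adjusted p = 5.17e-06 by Benjamini-Hochberg in edgeR's quasi-likelihood test), and was at 568 and 462 CPM in dual-treated mice 2 and 5. *Acvrl1*, a BMP9 receptor of endothelium, fell from 511, 678 and 707 CPM to 65.9, 65.1 and 64.5 CPM (log2FC -3.28, SE 0.21, adjusted p = 1.89e-06, edgeR), with 374 and 632 CPM in the dual-treated mice. *Cd36*, a fatty acid and thrombospondin receptor, fell from 956, 1014 and 986 CPM to 279, 220 and 240 CPM (log2FC -2.001, SE 0.12, adjusted p = 1.34e-06, edgeR). *Nostrin*, which carries endothelial NO synthase from the membrane, fell from 41.7, 39.7 and 43.6 CPM to 15.2, 14.96 and 14.2 CPM (log2FC -1.50, SE 0.09, adjusted p = 1.61e-06, edgeR). Both dual-treated mice were above the LPS mice for these 4 genes, and all 4 were called higher in that comparison. Of all tested genes, 37.9% lay wholly above LPS and 31.7% were called higher there. Nothing is read from these counts, since the 4 genes were picked as low in the same LPS mice.

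In the other direction, *S1pr1*, a sphingosine 1-phosphate receptor of endothelium and lymphocytes, rose from 271, 259 and 269 CPM in control mice 1, 2 and 4 to 624, 546 and 499 CPM in LPS mice 1, 6 and 7 (log2FC 1.06, SE 0.20, adjusted p = 0.00124 by Benjamini-Hochberg in edgeR's quasi-likelihood test). *Nos3*, the NO synthase that binds caveolin-1, was at 26.7, 31.9 and 35.6 CPM in control, 27.8, 33.4 and 47.5 CPM in LPS and 49.3 and 44.8 CPM in dual-treated lungs. It did not pass the test in any comparison of the main fit. Under some alternatives, as without LPS mouse 7, it was called higher with the dual treatment against control and against LPS. *Nos3* is named here after its values were seen. *Nostrin* shares 3693 exon bases with *Spc25* and *Plvap* 834 with *Gtpbp3*, both on opposite strands, and *Spc25* had 626 counts over the 8 libraries and *Gtpbp3* 4395, against 5450 for *Nostrin* and 56553 for *Plvap*.

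With the dual treatment against control, 1 of the 16 partners was called higher and 2 lower, beside 9.13% and 7.02% of all tested genes. *Cd36* was lower, at 647 and 657 CPM in dual-treated mice 2 and 5 (log2FC -0.60, SE 0.13, adjusted p = 0.0141, edgeR), a call lost without control mouse 2 (adjusted p = 0.0606, edgeR). The others, named after their values were seen, were *Flna*, the actin crosslinker that links caveolae to the cytoskeleton (higher, log2FC 0.81, SE 0.12, adjusted p = 0.00221, edgeR), and *Atp2b4*, a plasma membrane calcium pump (lower, log2FC -0.68, SE 0.14, adjusted p = 0.0104, edgeR). *Flna* was at 548, 580 and 610 CPM in control mice 1, 2 and 4, 577, 623 and 547 CPM in LPS mice 1, 6 and 7, and 960 and 1073 CPM in dual-treated mice 2 and 5. Against LPS, 6 partners were called higher and 4 lower with the dual treatment, beside 31.7% and 27.4% of all tested genes, and 8 higher and 2 lower with library size only.

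The flotillins, which scaffold membrane microdomains without caveolin, were not low in LPS lungs. *Flot2* rose from 110, 107 and 115 CPM in control mice 1, 2 and 4 to 345, 299 and 287 CPM in LPS mice 1, 6 and 7 (log2FC 1.48, SE 0.10, adjusted p = 2.72e-06 by Benjamini-Hochberg in edgeR's quasi-likelihood test), and was at 121 and 112 CPM in dual-treated mice 2 and 5. *Flot1* had a log2FC of 0.29 (SE 0.08, adjusted p = 0.0091, edgeR) with LPS, which was 0.00 (adjusted p = 0.967, edgeR) with scaling by total counts and 0.26 (adjusted p = 0.0688, edgeR) without a filter on low counts. It rose with the dual treatment against control, from 119, 119.6 and 121 CPM to 166 and 166 CPM (log2FC 0.47, SE 0.09, adjusted p = 0.00709, edgeR). *Flot1* also shares 1524 exon bases with *Tubb5* on the opposite strand. *Tubb5* had more reads, with 36030 counts over the 8 libraries against 22677 for *Flot1*. In the clathrin coat, 4 of 15 genes were called higher and 5 lower with LPS against control, beside 32.6% and 33.9% of all tested genes, and the median log2FC was -0.09. The highest was *Fcho1*, a membrane-bending initiator of clathrin pits, at 1.28 (SE 0.20, adjusted p = 0.00037, edgeR), and the lowest *Eps15*, an endocytic adaptor, at -0.91 (SE 0.08, adjusted p = 1.2e-05, edgeR). With library size only, 3 were called higher and 10 lower, while the median over all tested genes shifted to -0.29. With the dual treatment, 2 clathrin genes were called higher and 1 lower against control, beside 9.13% and 7.02% of all tested genes, with a median of 0.12. Against LPS 6 were called higher and 3 lower, beside 31.7% and 27.4%, with a median of 0.22. Over the alternatives in fit and libraries, with the call rule kept, the counts against control ran from 0 to 2 higher and from 0 to 1 lower. Those against LPS ran from 3 higher, as without either dual-treated mouse, to 10 with library size only, and from 0 to 3 lower.

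Markers of the cell types rich in caveolae were set beside the coat genes. Their calls stand beside 32.6% of all tested genes called higher and 33.9% lower with LPS against control, and 9.13% higher and 7.02% lower with the dual treatment against control. In these bulk samples, fewer cells of a type and less RNA per cell cannot be told apart. The 7 coat genes summed to 3842, 3735 and 3639 CPM in control mice 1, 2 and 4, to 872, 650 and 563 CPM in LPS mice 1, 6 and 7, and to 1935 and 2902 CPM in dual-treated mice 2 and 5. The 10 endothelial markers summed to 4249, 4389 and 4650 CPM, to 2523, 2045 and 2004 CPM, and to 3869 and 4053 CPM in the same mice. The LPS group was thus at 18.6% of the control mean for the coat genes and at 49.5% for the endothelial markers, and the dual group at 64.7% and 89.4%. With LPS against control 7 of the 10 endothelial markers were called lower and 0 higher, beside 33.9% and 32.6% of all tested genes, with a median log2FC of -2.06 beside -2.27 for the coat genes. *Cdh5*, the most abundant of them and the cadherin of endothelial junctions, was at 590, 659 and 737 CPM in control, 938, 657 and 642 CPM in LPS and 510 and 590 CPM in dual-treated lungs. *Cldn5* and *Esam*, also junction proteins, did not pass the test either, with log2FC of -0.02 and -0.22, whereas *Erg*, an endothelial transcription factor, had the lowest value, -3.62. With the dual treatment against control 1 endothelial marker was called higher and 1 lower. Against LPS 7 were called higher and 0 lower, beside 31.7% and 27.4% of all tested genes. The median log2FC of the endothelial markers there was 1.91, beside 1.84 for the coat genes. No endothelial marker was at 0 in any library. The part of endothelial cell number in the low coat values was not tested.

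**Figure D4:**
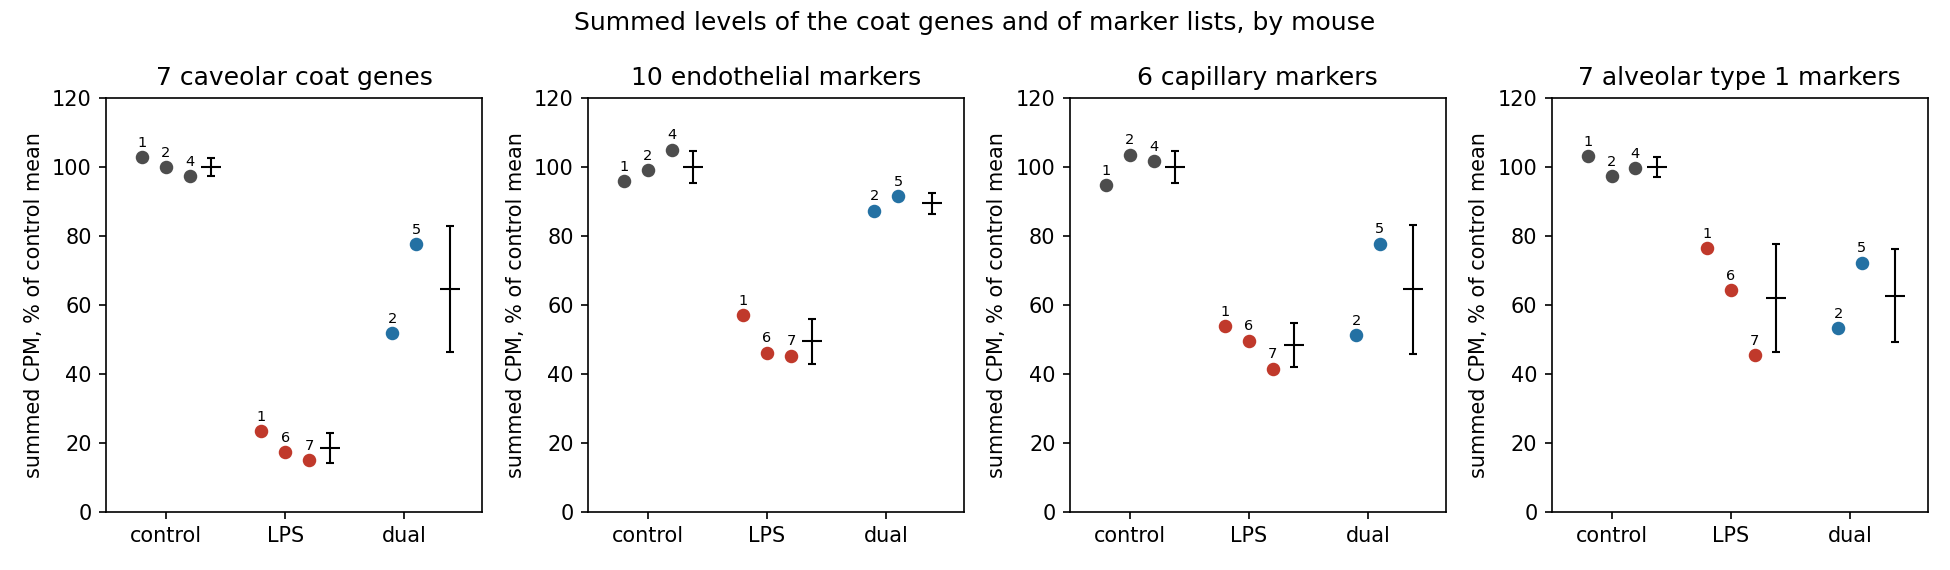
Summed CPM as a percent of the control mean (vertical axes, from 0) of the 7 coat genes and of 3 marker lists, by group (horizontal axes), with 1 numbered dot per mouse and the mean ± SD beside it. The coat genes lie at 15.1% to 23.3% in the LPS mice, below the endothelial markers at 45.3% to 57.0%. Abundant genes weigh most in such sums. The median log2FC per gene with LPS against control was -2.27 for the coat genes and -2.06 for the endothelial markers.

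The 6 capillary markers, of which *Tbx2* was the most abundant, summed to 761, 831 and 816 CPM in control mice 1, 2 and 4, to 433, 398 and 333 CPM in LPS mice 1, 6 and 7, and to 412 and 624 CPM in dual-treated mice 2 and 5. Of these 6, 5 were called lower with LPS, beside 33.9% of all tested genes, and 4 with the dual treatment, beside 7.02%, both against control. The 7 alveolar type 1 markers, led by *Ager*, summed to 5184, 4887 and 5005 CPM, to 3845, 3230 and 2282 CPM and to 2673 and 3631 CPM, with 4 called lower and 1 higher with LPS, beside 33.9% and 32.6% of all tested genes, and 2 lower with the dual treatment against control. Among them, *Akap5*, second in likeness to *Cav1*, was at 452, 473 and 467 CPM in control, 73.2, 46.7 and 44.7 CPM in LPS and 182 and 378 CPM in dual-treated lungs, whereas *Ager* was at 2336, 2186 and 2338 CPM, at 2432, 2011 and 1296 CPM and at 979 and 1411 CPM. No capillary or alveolar marker was at 0. The part of these cells in the coat values was not tested.

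For the other lists too, the shares of all tested genes with LPS against control were 33.9% lower and 32.6% higher. With LPS, 3 of 8 smooth muscle and pericyte markers were called lower and 1 higher, with sums of 420 to 522 CPM in control, 363 to 414 CPM in LPS and 357 to 359 CPM in dual-treated lungs, and *Pdgfrb* the most abundant. Of 6 fibroblast markers, led by *Pdgfra*, 2 were called higher and 2 lower, and the sums were 999 to 1088, 833 to 982 and 897 to 1365 CPM. Of 5 adipocyte markers 1 was called lower, with sums of 31.5, 128 and 33.9 CPM in control mice 1, 2 and 4, 11.0, 34.0 and 48.1 CPM in LPS mice 1, 6 and 7, and 108 and 18.7 CPM in dual-treated mice 2 and 5, and *Cidec* the most abundant. Alveolar type 2 markers, led by *Sftpc*, had 5 of 6 called lower, with sums of 31015 to 38988 CPM in control, 14469 to 25802 CPM in LPS and 18721 to 29771 CPM in dual-treated lungs. Of 6 neutrophil markers, led by *S100a9*, 6 were called higher with LPS, with sums of 99.8 to 187, 1805 to 2899 and 1660 to 2269 CPM. Leukocyte markers, led by *Csf1r*, had 2 of 6 called higher and 2 lower, with sums of 181 to 204, 192 to 252 and 473 to 618 CPM. Of 5 cardiac muscle markers, led by *Myh6*, 1 was called lower, with sums of 328 to 949, 366 to 616 and 204 to 207 CPM. With the dual treatment against control, where 9.13% of all tested genes were called higher and 7.02% lower, 5 of 6 neutrophil and 4 of 6 leukocyte markers were called higher, 4 of 5 cardiac and 3 of 8 smooth muscle and pericyte markers lower, and 0 fibroblast, adipocyte and alveolar type 2 markers. No marker of these lists was at 0, and the part of these cells in the coat values was not tested.

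LPS mice 6 and 7 also stood apart in squamous epithelial markers. These 6 genes, led by *Krt13*, summed to 4.16, 5.35 and 4.09 CPM in control mice 1, 2 and 4, to 0.771, 649 and 1877 CPM in LPS mice 1, 6 and 7, and to 3.27 and 6.10 CPM in dual-treated mice 2 and 5. With LPS 5 were called higher and 1 lower, beside 32.6% and 33.9% of all tested genes, and *Krt4*, *Krt6a*, *Sprr3* and *Krt5* were at 0 in some libraries. The part of LPS mice 6 and 7 in the low coat values was not tested. The values of LPS mouse 1 alone are a description, since the coat genes were chosen on them. With LPS mouse 1 as the only LPS mouse, an alternative chosen after seeing the data that assumes its spread to be that of the other groups, the log2FC against control was -2.46 for *Cav1*, -2.01 for *Cav2*, -1.96 for *Cavin1*, -2.73 for *Cavin2*, -0.99 for *Cavin3*, -2.02 for *Ehd2* and -0.74 for *Pacsin2*. Each was nearer to 0 than with all 3 LPS mice.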

How the data were processed

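The authors checked and trimmed the reads with FastQC 0.11.9 and Trim Galore, aligned them to GRCm39 with HISAT2 2.2.1, counted them per gene with featureCounts 2.0.1 and deposited raw counts for each of the 8 mice, per the submitters' processing notes and the methods of the study. Annotation release, strand setting and the treatment of multi-mapped reads are not given in the sources used here, so that paralogs and antisense pairs are uncertain. Of 55416 identifiers, 54749 matched GENCODE M39, and the 667 others held 0.0533% of counts. Total counts ran from 19061949 to 20908608 per library, and the fewest counts behind a value of a coat gene were 235. Methods name 3 sequenced mice per group, whereas the labels and a figure legend of the study give 2 for the dual treatment.

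The analysis used edgeR 4.0.16 under R 4.3.3. Low counts were removed with filterByExpr, libraries were normalized by TMM, and 1 model of the 3 groups was fitted to the 8 libraries (5 residual degrees of freedom) for the quasi-likelihood test. Genes were called at a Benjamini-Hochberg adjusted p under 0.05 over 18560 genes. TMM factors were 1.06 to 1.08 in control, 0.810 to 0.930 in LPS and 1.09 to 1.11 in dual-treated libraries. Values are TMM-normalized CPM, SE was taken from log2FC and its F statistic, and likeness used log2 CPM with a prior count of 2. The procedure was tried on simulated counts with known differences put in, of which 90.0% and 90.5% were recovered in the 2 comparisons with control. These differences were all of the same size, in a small set of genes and alike in both treated groups. Smaller differences, and changes across many genes as in these data, were therefore not tried. Alternatives were DESeq2 1.42.0, library size only, DESeq2's size factors in edgeR, other filters, the compared groups alone, a fold change over 2 with an unadjusted p under 0.05, and each mouse left out. Tables, sequence and plots were made in Python 3.11.15 (numpy 2.4.6, pandas 2.3.3, matplotlib 3.10.9).

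The coat genes, the lists of paralogs, partners, flotillins, clathrin coat and cell type markers, and the tests were chosen with earlier results of these data known. Paralogs were all named, partners where called against control with an absolute log2FC over 1, the highest and lowest of the clathrin list, and the 3 nearest genes in likeness for each coat gene but *Cavin2*.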

Additional observations from a re-analysis of the deposited data

How the results depend on the processing

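As the coat genes were chosen on these values, nothing is read from their calls, and the alternatives only describe how the counts moved. The direction of each coat gene was the same in all alternatives for LPS against control and for dual treatment against LPS, and 7 of 7 were called there, except that 6 were with the fold criterion (change above 2-fold, unadjusted p under 0.05). For dual treatment against control, 2 coat genes were called in the main fit. With library size only, and with at least 10 counts in every library, 1 was called higher and 2 lower. The count was 4 with DESeq2, 4 without a filter on low counts, 4 with the 2 compared groups only, 4 with LPS mouse 1 as the only LPS mouse (chosen after seeing the data) and 1 with the fold criterion. With DESeq2's size factors in edgeR the count was 2 as before, but *Cavin3* was no longer called and *Cavin1* was. With each mouse left out it ran from 0 to 4. The 3 calls among paralogs and partners became 5, 5, 7, 7 and 0 under the same alternatives, and 2 to 7 with each mouse left out. Against LPS their 15 calls became 8 with the fold criterion, and 14 to 16 with each mouse left out, and against control 12 LPS calls became 11 to 13.

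Over all genes, the fold criterion gave 7450 calls in place of 12346 for LPS against control, 1944 in place of 2997 for dual treatment against control and 6554 in place of 10960 for dual treatment against LPS. With each mouse left out these counts ran from 11026 to 12419, from 1259 to 3456 and from 8631 to 10571. The lowest count against control came without dual-treated mouse 2, and control mice 1, 2 and 4 left out gave 1779, 1552 and 1703. With library size only, the share of calls that were higher was 35.6% in place of 49.0% for LPS against control and 71.0% in place of 53.6% for dual treatment against LPS, and the median log2FC over all genes moved to -0.29 and 0.38, and single genes moved with it. Of 105 log2FC of coat genes under the alternatives in each comparison, 11, 4 and 16 moved by more than the spread between mice, and 0 of the called values changed sign. Where 1 dual-treated mouse was left, its spread was assumed to be that of the other groups. No paired analysis was possible because each mouse belonged to 1 group only, and equal mouse numbers in different groups are different mice. The cause of these differences was not tested. With 2 dual-treated mice, differences between them limit each value of that group.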
